A study of Mus musculus with 30 samples.

Results

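Chromatin sites that were more open in activated CD4 T cells labelled PKA knockout (KO) than in control cells (WT), and that activation had not closed in WT, are described here across open chromatin and RNA. They number 3400 of 110808 sites measured by ATAC-seq, an assay in which a transposase cuts accessible DNA. A site was taken when log2((WT activated + 0.5)/(WT naive + 0.5)) was above -1 and log2((KO activated + 0.5)/(WT activated + 0.5)) was at least 0.7. Both were computed on group means of CPM, a count divided by all counts in sites of that library and scaled by 1e6. The first condition alone held for 92827 sites, and 9692 of these had a KO over WT value of -0.7 or below, called here the sites less open in KO.

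Naive CD4 T cells from mouse spleen and lymph nodes, enriched by a kit and sorted, were profiled directly or after 3 days of stimulation through CD3 and CD28. A further set of cells was rested with IL-7 for 3 days and then given forskolin, an activator of adenylyl cyclase, at 1 ug/mL for 4 hours. RNA-seq covered WT and KO in all 3 conditions and ATAC-seq covered naive and activated cells, with 3 libraries in each group and 30 in all. The labels name neither the deleted gene nor the means, cell type or time of deletion, no age, and no separate animals behind the 3 libraries, so p-values measure the spread between these samples.

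Prkaca, the gene of the catalytic subunit alpha of PKA, was at 1.11 ± 0.291 CPM in activated KO and 49.6 ± 6.17 CPM in activated WT RNA libraries (SD, n = 3). ATAC libraries held 18522373 to 25318916 counts in sites, and RNA libraries 7665955 to 11950488 counts in genes. All 8 CD4 T cell marker genes were detected in every group, and summed to 2296 ± 57.8 CPM in activated WT and 2186 ± 9.20 CPM in activated KO. Xist, which is expressed from the inactive X chromosome of females, was near 0 in replicate 1 of the naive and activated RNA groups of both genotypes and at least 258 CPM in replicates 2 and 3, so that WT and KO matched. In these bulk samples fewer cells of a type and less RNA or accessibility per cell cannot be told apart.

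PKA is the kinase that cyclic AMP switches on. It phosphorylates the transcription factor CREB, which binds cyclic AMP response elements, and in T cells cyclic AMP is best known as a brake on receptor signalling. Activation of a naive T cell opens many distal elements that are bound by AP-1, NFAT, RUNX, ETS, IRF and STAT factors. An opening site can act as an enhancer or a promoter, or have no effect on a nearby gene.

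Sequences could be read only where a site overlapped a RefSeq promoter window, from 250 bases before to 50 after a gene start (GRCm38.p6, the assembly that mm10 names). This held for 36 sites, which overlapped 42 windows. The 250 bases before the start are shown for 6 of them. Of these, 5 belong to genes among the 9 with a site over their start and higher RNA in activated KO cells, and the rest of the 9 are not shown. The sixth, Oas1a, was not called and was added because it has matches of both motifs described next. Capitals mark matches, on either strand, to any of 30 searched motifs, and those in capitals below are the IRF motif (GAAA and GAAA with 2 free bases between), the STAT motif TTCNNNGAA, the E-box CACGTG, the RUNX core TGTGGT and the TCF/LEF motif CTTTGAA. In Oas1a the STAT match overlaps the TCF/LEF match. Windows were searched whole, and a site can cover only part of one: all marked matches of Oas1a and the CACGTG matches of Casp1 and Mbnl1 lie outside the site.
Spib, chr7:44532072-44532321, minus strand: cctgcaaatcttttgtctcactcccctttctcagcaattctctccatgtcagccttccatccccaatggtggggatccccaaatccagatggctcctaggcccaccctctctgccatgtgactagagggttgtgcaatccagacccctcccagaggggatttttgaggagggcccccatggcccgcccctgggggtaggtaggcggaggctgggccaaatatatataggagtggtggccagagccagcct
Serpina3g, chr12:104235897-104236146, plus strand: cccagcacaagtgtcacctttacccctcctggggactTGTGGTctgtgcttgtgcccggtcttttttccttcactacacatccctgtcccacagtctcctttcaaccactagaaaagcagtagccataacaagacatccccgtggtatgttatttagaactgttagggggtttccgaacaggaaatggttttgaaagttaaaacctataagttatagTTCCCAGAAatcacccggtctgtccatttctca
Mbnl1, chr3:60472580-60472829, plus strand: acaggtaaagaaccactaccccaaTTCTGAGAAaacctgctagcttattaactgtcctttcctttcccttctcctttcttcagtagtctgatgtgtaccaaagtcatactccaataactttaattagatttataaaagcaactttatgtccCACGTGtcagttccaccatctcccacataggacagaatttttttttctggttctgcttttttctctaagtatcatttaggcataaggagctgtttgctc
Mndal, chr1:173880188-173880437, minus strand: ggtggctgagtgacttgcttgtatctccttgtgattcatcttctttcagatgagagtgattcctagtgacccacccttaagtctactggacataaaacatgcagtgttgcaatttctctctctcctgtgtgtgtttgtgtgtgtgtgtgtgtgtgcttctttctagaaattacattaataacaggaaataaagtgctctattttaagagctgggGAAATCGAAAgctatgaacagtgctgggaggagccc
Casp1, chr9:5298267-5298516, plus strand: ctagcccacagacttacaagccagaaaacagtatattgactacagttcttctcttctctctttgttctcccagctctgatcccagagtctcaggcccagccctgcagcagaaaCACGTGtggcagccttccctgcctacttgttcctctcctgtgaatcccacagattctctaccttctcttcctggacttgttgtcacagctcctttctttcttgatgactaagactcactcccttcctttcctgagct
Oas1a, chr5:120907526-120907775, minus strand: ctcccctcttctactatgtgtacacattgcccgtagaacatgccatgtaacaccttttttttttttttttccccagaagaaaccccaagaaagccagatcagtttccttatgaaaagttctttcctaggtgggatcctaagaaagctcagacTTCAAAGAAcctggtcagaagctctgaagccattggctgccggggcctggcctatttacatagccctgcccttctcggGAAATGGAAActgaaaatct

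The IRF motif was in 9 of the 42 windows (21.4%), against 3.06% of the 12464 windows with any ATAC site and 3.44% of all 32851 windows. Counted by site, 8 of 36 sites had it. In the 250 bases before the start, 9 windows had an IRF match and 9 a STAT match, and in 7 of each a match lay within the site itself. The 9 windows with an IRF match included starts of Mndal, Ifi203, Oas1a, Slamf8 and Ifna14, and the matches of Oas1a lay outside its site. Mndal has more than 1 of these windows, and the one shown shares the letters around its match with that of Ifi203. Their windows are therefore not independent. At both of these starts the third activated WT library was far above the other WT libraries, as given below. The STAT motif was in 11 of 42 windows (26.2%), against 6.72% and 8.30%. The RUNX motif TGTGGTTT was in 4 windows (9.52%), against 1.44% and 1.78%. The full cyclic AMP response element TGACGTCA was in 0 of the 42, against 3.43% and 1.79%, and its part TGACG in 3 (7.14%), against 32.2% and 20.8%. These windows also differed in base composition, with a median GC content of 46.5% against 61.3% for windows with any site and 52.7% for all windows. IRF, STAT, RUNX and the response element were singled out after the shares were seen, and the part of base composition was not tested. A match describes letters only, and where none was found these letters are not in the window, which says nothing of a factor.

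The values that chose the sites are given as a description. The KO over WT difference had a median of 0.87 on the log2 scale of CPM + 0.5, 966 sites reached 1 and 5 reached 2. Median levels over the sites were 0.118 CPM in naive WT, 0.132 in naive KO, 1.47 in activated WT and 3.23 in activated KO cells. Of the sites, 2496 (73.4%) opened on WT activation by at least 1 on the log2 scale, and 904 (26.6%) were stable, between -1 and 1. Among the stable ones 680 opened by at least 1 in KO cells. Every activated KO library was above every activated WT library at 3347 sites (98.4%), where 24.0% of all sites had this order. The authors' deposited table gave 574 of them an FDR under 0.05, almost all of the 575 sites higher in KO there (0.519% of all sites). The edgeR test on the deposited counts called 3349 of the 3397 sites tested, where 15.1% of all sites tested were called higher and 20.1% lower. These counts follow from the choice of sites.

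The sites together took up 0.706%, 0.823% and 0.829% of the counts of the activated WT libraries and 1.59%, 1.68% and 1.69% of the activated KO libraries. In naive cells they took up 0.130%, 0.133% and 0.167% in WT and 0.207%, 0.227% and 0.230% in KO. In these sums over sites the naive KO libraries, which the rule did not use, were all above the naive WT libraries. The naive WT mean enters the first condition. At the median site the genotypes overlapped, at 0.086, 0.084 and 0.216 CPM in naive WT and 0.103, 0.138 and 0.126 in naive KO. Without 4 sites at Cd4 and Lag3 that are described below, the naive shares were 0.139 ± 0.0206% in WT and 0.185 ± 0.0137% in KO (SD, n = 3).

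**Figure D1:**
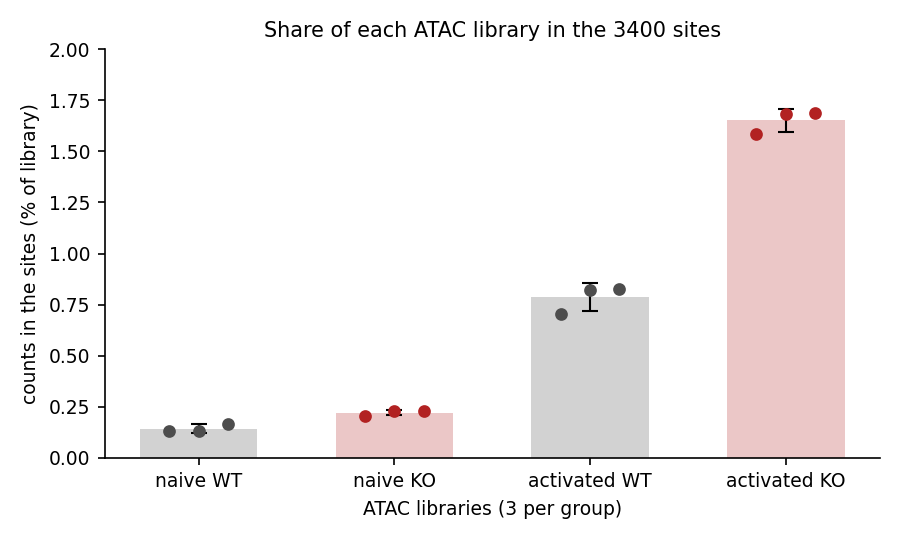
Share of the counts of each ATAC library (y axis, percent) that fell in the 3400 sites, for naive and activated WT and KO cells. Points are libraries, bars are means and error bars are SD (n = 3). The activated KO libraries were chosen to be high, and lie between 1.59% and 1.69%. The naive KO libraries, at 0.207% to 0.230%, lie above the naive WT libraries, at 0.130% to 0.167%. These are sums over sites, and the level of the median site overlapped between the naive genotypes.

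Most sites were weak in WT. Of sites that met the first condition, those under 1 CPM in activated WT were chosen in 18.3% of cases, those from 1 to 2 CPM in 5.37%, from 2 to 5 CPM in 3.20%, from 5 to 10 CPM in 1.66%, and those of 10 CPM or more in 0.312%. The median site held 32 to 38 counts in an activated WT library and 67 to 72 in a KO library. At the threshold, the 5 sites just inside had 0.511 to 1.28 CPM in activated WT and 1.14 to 2.40 CPM in KO, and the 5 just outside 1.06 to 1.47 and 2.03 to 2.70 CPM. All 10 had a difference of 0.70 at 2 decimals.

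The 3 sites with the largest differences lay within the Cd4 gene on chromosome 6, and another site of the set lay beside them at Lag3. The site at chr6:124879828-124880228 had 0.790, 0.874 and 0.692 CPM in activated WT and 26.6, 24.2 and 24.0 CPM in activated KO. In naive cells it had 0.301, 0.210 and 0.432 CPM in WT and 37.2, 50.5 and 31.3 CPM in KO. So the KO libraries were far above WT in both states, and the KO level was higher before activation than after it. Naive log2 fold changes of the 4 sites ran from 2.25 to 6.97 (edgeR quasi-likelihood test, adjusted p at most 4.97e-06), and these 4 of 13 sites in that stretch met the rule. The Cd4 gene, which encodes the coreceptor that defines these cells, had 577 ± 51.3 CPM in activated WT and 537 ± 16.8 CPM in activated KO RNA (adjusted p = 0.28). What sets these 4 sites apart was not tested.

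After them came sites with low counts in WT. They were chr3:60795199-60795599 near the gene model Gm38326, at 0.366 ± 0.265 CPM in activated WT and 3.02 ± 0.491 CPM in KO, and chr15:79583002-79583402 near Dmc1, a meiotic recombinase gene, at 0.341 ± 0.0655 and 2.89 ± 0.357 CPM. The remaining 5 of the 10 largest lay near Ankrd27, Olfr1408 and Fhit or, in 2 cases, over 10 kb from any RefSeq gene. The Olfr1408 site had 0, 0 and 1.29 CPM in activated WT and 3.03, 2.67 and 3.35 CPM in KO. Its WT counts thus came from replicate 3 alone, and the authors' deposited FDR for it was 0.581.

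The sites were far from gene starts. The median distance to the nearest start in the RefSeq table was 30700 bp, against 17280 bp for all sites, 20850 bp for all sites that opened in WT and 23030 bp for the sites less open in KO. That table lists a start for 17492 of 21376 protein-coding genes, which lengthens the distances of all these sets. Only 2.38% lay within 1 kb of a start and 35.5% lay over 50 kb away, against 12.4% and 22.0% of all sites. Promoter windows were overlapped by 36 of 3280 sites (1.10%), against 9.47% of all sites, 3.83% of opening sites and 1.38% of the sites less open in KO. The 120 sites on chromosome 18 have no distance here, since the table of starts used here gave none for it.

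**Figure D2:**
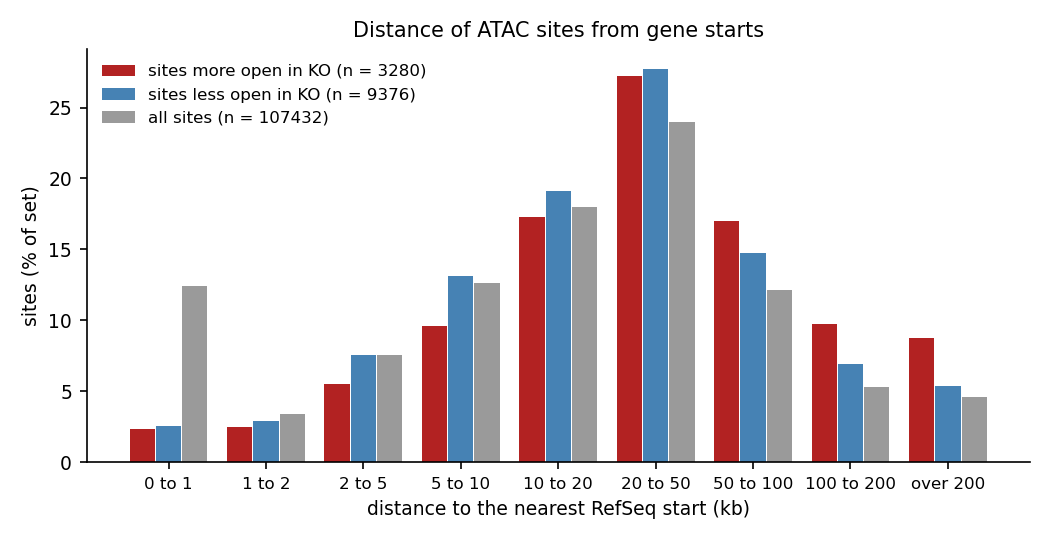
Percent of sites (y axis) by distance to the nearest RefSeq start in kb (x axis), for the sites more open in KO (n = 3280), the sites less open in KO (n = 9376) and all sites (n = 107432). Both chosen sets are scarce within 1 kb of a start, and the sites more open in KO have the largest shares beyond 50 kb.

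Within gene bodies lay 61.8% of the sites, against 69.6% of all sites and 64.2% of the sites less open in KO, and 78.0% lay within 10 kb of a gene. They were spread over the genome. The share of sites chosen ran from 2.02% on chromosome 11 to 4.44% on the X chromosome, and 2977 sites had no other one within 10 kb. The other 423 formed 195 groups, of at most 5 sites.

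Naive cells gave a test on libraries that the rule had not used for KO, although the naive WT mean enters the first condition. In the edgeR quasi-likelihood test over 74371 sites, 76 of the 3400 sites were higher in naive KO and 0 lower, where 0.816% of all sites tested were higher and 1.29% lower. Only 579 of the 3400 passed the low-count filter, so that the count has no simple denominator. Without the filter 82 of 3398 were higher and 0 lower. At an unadjusted p under 0.05, 207 were higher and 1 lower, and DESeq2 and limma-voom called 0 lower. With the replicate number as a block, the count was 163 higher and 0 lower. The third naive WT library, the shallowest at 18522373 counts, had 159 of the sites at 0 counts, against 941 and 867 in the others, and without it the count was 73. It was 32 without KO replicate 3, 7 by the authors' deposited FDR (0.0108% of all sites higher there), and 72 without the 4 sites at Cd4 and Lag3. All naive KO libraries were above all naive WT libraries at 392 of the 3400 sites (11.5%), where 9.07% of all sites had this order. Of the 76 calls, 34 were opening and 42 stable sites, and 59 had at least 10 counts in every naive WT library.

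Some of these calls were gathered in a few places. Chromosomes 3, 6 and 18 held 28 of the 76, with 210, 189 and 120 of the 3400 sites, and 8 lay between 60 and 61 Mb of chromosome 3, a stretch picked after its values were seen. There, 17 of 87 sites were in the set. The 2 strongest sites of this stretch in activated cells were almost closed in naive WT. At chr3:60438744-60439144, upstream of Mbnl1, counts rose on activation from 0.207 ± 0.103 to 34.9 ± 0.779 CPM in WT and from 0.332 ± 0.111 to 74.4 ± 1.45 CPM in KO. At chr3:60787994-60788394, over the start of the gene model Gm38326, naive WT libraries had 0.430, 0.168 and 0.648 CPM and naive KO libraries 5.65, 5.29 and 6.16 CPM, a log2 fold change of 3.80 ± 0.26 (edgeR adjusted p = 8.8e-07).

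Mbnl1, which encodes a regulator of alternative splicing and polyadenylation, had 6 of the sites, from its start at chr3:60472299-60472699 to 86510 bp from the nearest start. At the start site activated WT libraries had 12.6, 14.0 and 12.6 CPM and activated KO libraries 30.9, 30.0 and 30.7 CPM. In naive cells it had 6.62, 5.87 and 5.13 CPM in WT and 9.56, 9.48 and 9.81 CPM in KO, a log2 fold change of 0.68 ± 0.11 (edgeR adjusted p = 0.00365). The site 14020 bp away was open before activation, at 23.8 ± 0.136 CPM in naive WT and 35.9 ± 1.37 CPM in naive KO (0.57 ± 0.07, adjusted p = 0.000341). At the sites 1867 and 8177 bp away all naive KO libraries were above all naive WT libraries, without passing the test (0.49 ± 0.14, adjusted p = 0.0795, and 0.46 ± 0.12, adjusted p = 0.0628). The sites 37520 and 86510 bp away were below 1 CPM in every naive library. Mbnl1 RNA read 459, 573 and 521 CPM in activated WT and 745, 817 and 887 CPM in activated KO, with no overlap. It rose in KO by 0.63 ± 0.08 on the log2 scale (edgeR adjusted p = 3.61e-05), and stood at 1081 and 1308 CPM in naive WT and KO (adjusted p = 0.546).

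**Figure D3:**
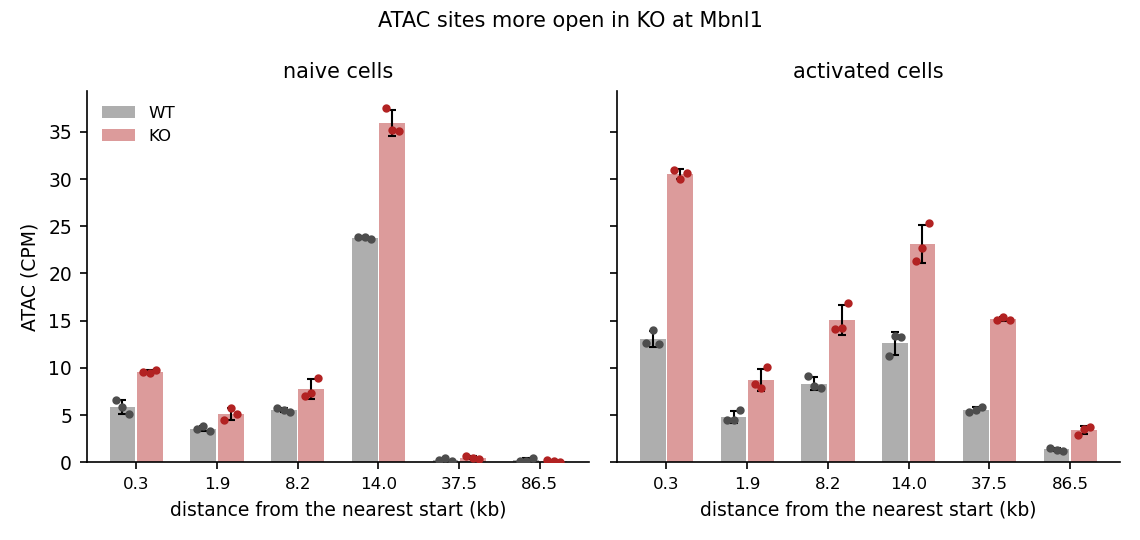
ATAC level in CPM (y axis) of the 6 sites at Mbnl1 in naive (left) and activated (right) cells, ordered by distance from the nearest gene start in kb (x axis). Bars are means, error bars SD and points libraries (n = 3 per genotype). KO is above WT at all 6 sites in activated cells, by which they were chosen, and in naive cells at the start (9.62 against 5.87 CPM) and at 14020 bp (35.9 against 23.8 CPM), both called. Naive KO libraries also lie above WT at 1867 bp (5.13 against 3.57 CPM) and 8177 bp (7.74 against 5.54 CPM), which were not called.

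Genes were tied to the sites by a RefSeq span within 10 kb, which linked 2651 of the 3400 sites to at least 1 gene and 1330 tested genes to at least 1 site. In activated cells 153 of these genes were higher in KO (11.5%) and 127 lower (9.55%), where 5.89% of all 11980 tested genes were higher and 9.04% lower. The median log2 fold change was 0.015 in the tied genes and 0.014 in all genes. With upper-quartile scaling the split was 179 higher and 93 lower, against 8.24% and 7.04% of all genes. Without KO replicate 3 it was 101 and 79. Seen from the RNA, 21.7% of the 706 higher genes had such a site nearby, 11.7% of the 1083 lower genes and 10.3% of the 10191 others.

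The share of higher genes was larger where more of the sites lay nearby. It was 5.20% of 10240 genes with ATAC sites but none of the set, 9.45% of 1048 genes with 1, 17.6% of 187 genes with 2 and 22.1% of 95 genes with 3 or more. Lower genes made up 9.14%, 9.54%, 9.63% and 9.47%. With any single naive or activated library left out, the share with 3 or more stayed between 15.6% and 22.7%, and that with none between 3.00% and 6.28%. Tied genes were also longer, with a median span of 69735 bp and 9 ATAC sites, against 19457 bp and 5 sites for genes with ATAC sites but none of the set. Within genes of at most 5 ATAC sites, 11.8% of 338 tied genes and 4.48% of 6222 others were higher. For 6 to 15 sites these shares were 10.8% and 6.34%, and for over 15 sites 12.6% and 6.04%. Lower genes made up 5.03% of tied genes and 5.46% of others with at most 5 sites. For 6 to 15 sites the lower shares were 9.66% and 13.1%, and for over 15 sites 13.7% and 25.8%. The flat lower share above was thus not seen once genes with many ATAC sites were set side by side. Across the 1330 tied genes the size of the largest site difference had almost no relation to the RNA change (Pearson r = 0.0618, a description across genes, which are not independent).

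**Figure D4:**
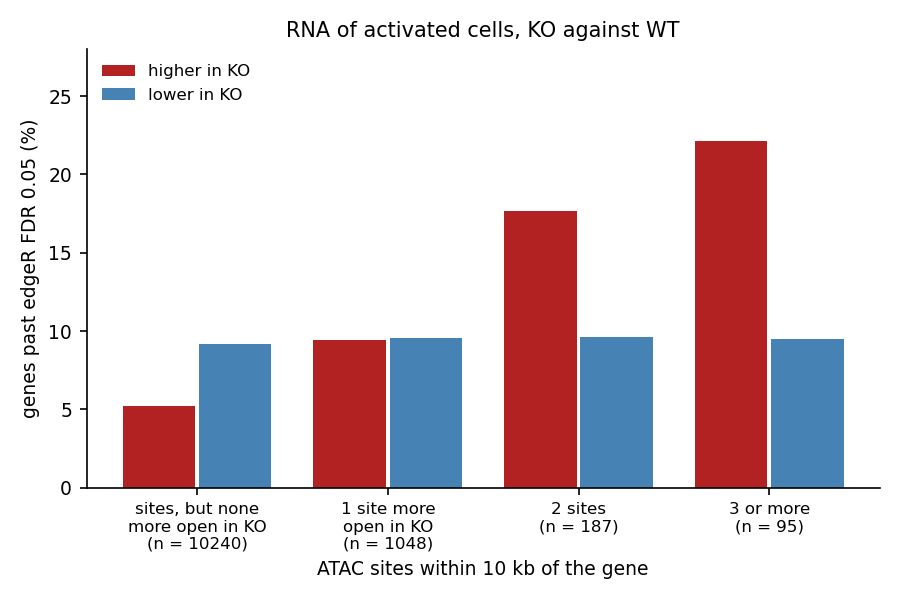
Percent of tested genes called higher (red) or lower (blue) in activated KO RNA (y axis, edgeR FDR 0.05) by the number of sites more open in KO within 10 kb (x axis, with the number of genes). The higher share goes from 5.20% with none to 22.1% with 3 or more, and the lower share stays between 9.14% and 9.63%. The groups of genes are not matched for their number of ATAC sites.

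Sites less open in KO went with the other direction. Of 788 genes near the chosen sites and no less open site, 97 were higher (12.3%) and 38 lower (4.82%). Of 542 genes near both kinds 56 were higher (10.3%) and 89 lower (16.4%). Of 2636 genes near less open sites alone, 121 were higher (4.59%) and 522 lower (19.8%). The 7604 genes near neither had 411 higher (5.4%) and 414 lower (5.4%). Among all tested genes 5.89% were higher and 9.04% lower.

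Some genes with a site of the set over their start had higher RNA in activated KO. Of 36 symbols with a site over their own window, 22 were in the RNA tables and 13 passed the filter on low counts. Of these 9 were called higher and 0 lower, and without the filter 9 of 19 tested were higher and 0 lower. The 13 had a median log2 fold change of 0.78, and 444 of 7794 genes (5.70%) with any ATAC site over their window were higher. The count was 8 to 11 under the other scalings, tests and libraries left out. Low-expressed genes enter the 13 more readily when they are high in KO, so that the count is a description. The 10 genes plotted were picked after their values were seen. The other 3 tested were the X-linked Xlr3a, which was called higher (2.03 ± 0.41, edgeR adjusted p = 0.00225), Rit1 (-0.15 ± 0.12, adjusted p = 0.444) and Prx (-0.13 ± 0.34, adjusted p = 0.856).

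Spib, an ETS transcription factor gene of B cells and plasmacytoid dendritic cells, had 4 of the sites. Over its start, activated WT libraries had 2.80, 4.33 and 3.41 CPM and activated KO libraries 7.75, 7.37 and 7.45 CPM, after at most 0.377 CPM in any naive library. Its RNA read 2.14, 7.59 and 6.32 CPM in activated WT and 29.2, 35.3 and 38.1 CPM in activated KO, a log2 fold change of 2.66 ± 0.38 (edgeR adjusted p = 0.000821). None of the 30 motifs matched the 250 bases before its start. Pld4, the gene of an endolysosomal nuclease, had 0.982, 1.14 and 0.279 CPM in WT and 3.35, 3.57 and 3.99 CPM in KO (2.14 ± 0.36, adjusted p = 0.000394).

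Serpina3g encodes a protease inhibitor found in activated T cells, and belongs to a cluster of near-identical genes among which reads can be split. It read 27.6, 25.1 and 21.8 CPM in activated WT and 77.7, 71.2 and 77.3 CPM in activated KO, a rise of 1.58 ± 0.11 (adjusted p = 1.39e-08), and was at most 0.224 CPM in any naive library. Its start site had 6.17 ± 0.255 CPM in activated WT and 11.2 ± 1.26 CPM in KO. Pappa2, the gene of a protease that cleaves binding proteins of insulin-like growth factor, rose from 10.1, 23.6 and 25.0 to 37.0, 69.5 and 57.4 CPM (1.46 ± 0.32, adjusted p = 0.0143). It had 3 of the 4 ATAC sites at that gene in the set.

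Mndal and Ifi203 are neighbours on chromosome 1 in a family of interferon-inducible DNA-binding proteins with near-identical members, so that reads may be split between them. At the Mndal start, chr1:173880131-173880531, the third WT library stood apart in both states. Naive WT libraries had 0.0860, 0.377 and 3.56 CPM and naive KO libraries 3.90, 4.42 and 4.11 CPM. Activated WT libraries had 0.632, 0.458 and 6.78 CPM and activated KO libraries 8.48, 7.57 and 7.21 CPM. WT replicate 3 was thus near the KO level and the other two far below it, and the site passed the rule through them. Mndal RNA read 72.0, 48.3 and 70.7 CPM in activated WT and 133, 92.2 and 110 CPM in KO (0.78 ± 0.16, adjusted p = 0.00585), without that pattern. At the Ifi203 start, activated WT libraries had 3.44, 3.29 and 9.50 CPM and KO libraries 11.1, 9.50 and 11.5 CPM. Ifi203 RNA was at 113 ± 25.5 CPM in activated WT and 137 ± 24.0 CPM in KO (adjusted p = 0.306, and 0.0148 without WT replicate 1). WT replicate 3 was the highest WT library at 24 of the 53 sites whose activated WT and KO libraries overlapped, replicate 1 at 13 and replicate 2 at 16.

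Casp1, which encodes the caspase that matures interleukin-1 beta, had 0.903, 0.545 and 1.19 CPM at its start in naive WT and 2.77, 1.98 and 3.02 CPM in naive KO (1.56 ± 0.27, adjusted p = 0.00457). Its RNA read 15.3, 16.1 and 17.4 CPM in activated WT and 30.4, 36.6 and 37.2 CPM in KO, a log2 fold change of 1.07 ± 0.25 (adjusted p = 0.0134). That call was lost without WT replicate 2, KO replicate 2 or KO replicate 3 (adjusted p up to 0.0553). Lpin2, a phosphatidate phosphatase gene, rose from 27.0 ± 1.06 to 36.2 ± 2.40 CPM (0.40 ± 0.09, adjusted p = 0.0039). Oas1a, an interferon-induced gene of the antiviral oligoadenylate pathway, varied between libraries, with 19.6, 5.79 and 4.93 CPM in activated WT and 22.3, 11.1 and 14.5 CPM in KO (adjusted p = 0.475).

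**Figure D5:**
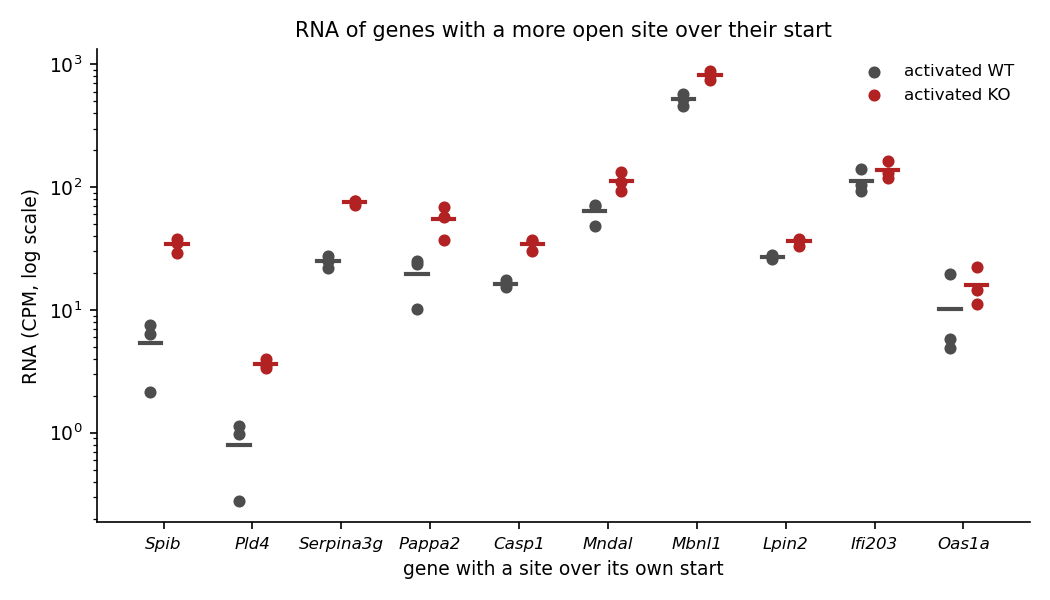
RNA level in activated cells (y axis, CPM on a log scale) of 10 genes with a site of the set over their own start. Points are libraries and lines means (n = 3 per genotype). The KO libraries of Spib (29.2 to 38.1 CPM) and Serpina3g (71.2 to 77.7 CPM) lie above all WT libraries, and those of Ifi203 and Oas1a overlap WT.

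Other large RNA rises came from genes with a site inside their span or within 10 kb of it, but not over a listed start. Exons and introns were not told apart. The site of Slc30a3 lay outside its span and also within 10 kb of Cad. Slc30a3, a zinc transporter gene, read 0.268, 0.664 and 0.837 CPM in activated WT and 6.11, 5.79 and 6.51 CPM in KO (3.34 ± 0.33, edgeR adjusted p = 3.84e-06). Slamf6, a receptor of the SLAM family on T cells, read 13.2, 19.4 and 25.4 CPM and 76.2, 70.1 and 71.7 CPM (1.89 ± 0.22, adjusted p = 0.000201). WT activation lowered Slamf6 by 1.87 on the log2 scale, and in activated KO it was near the naive KO level of 73.8 CPM. Its site, at chr1:171946566-171946966, had 0.735 ± 0.141 CPM in activated WT and 1.99 ± 0.274 CPM in KO.

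Pdk2, a kinase gene that restrains pyruvate dehydrogenase, had 2 of the sites and 2.23, 2.47 and 2.60 CPM in activated WT, against 11.0, 9.75 and 8.75 CPM in KO (1.99 ± 0.17, adjusted p = 2.17e-07). Kifc3, a kinesin gene, rose by 2.05 ± 0.25, Fibcd1, the gene of a chitin-binding receptor, by 1.97 ± 0.35, and Ramp1, which encodes a partner of the receptor for calcitonin gene-related peptide, by 1.53 ± 0.21 (adjusted p at most 0.000667). Setbp1 on chromosome 18 had 4 of the sites. It rose by 1.49 ± 0.26 in activated KO and by 4.19 ± 0.14 with forskolin, where it read 2.74, 2.11 and 1.50 CPM in WT and 41.6, 36.2 and 38.7 CPM in KO (adjusted p = 3.46e-20).

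Other genes near the sites fell. Inhba, which encodes a subunit of activin A, read 8.03, 7.78 and 8.74 CPM in activated WT and 0.586, 1.26 and 1.07 CPM in KO (-3.11 ± 0.30, adjusted p = 3.1e-06). Gpr171, a G protein-coupled receptor gene of T cells, was at 57.3, 61.7 and 59.1 CPM against 13.8, 11.6 and 11.8 CPM (-2.28 ± 0.11, adjusted p = 1.16e-10). It was also lower in naive KO, at 23.5 ± 2.01 against 39.9 ± 3.17 CPM (adjusted p = 0.00178), and with forskolin (-2.18 ± 0.07). Adcy6, an adenylyl cyclase gene, fell by 1.64 on the log2 scale and Rbpj, the transcription factor of Notch signalling, by 1.37 (adjusted p at most 1.57e-08).

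All 10 genes named by the rule for the largest falls except Dclk1 also had at least 1 site less open in KO. The rest of these were Asph with 5, Ptprk with 6, Scin, Galc and Gpr171 with 3 each, Rbpj with 2, and Adcy6, Inhba and Tnip3 with 1 each. Among the 10 largest rises, Kifc3, Ramp1, Slamf6 and Slc30a3 had 1 each and the other 6 had none. Of all 1330 tied genes 542 had such a site, of the 153 higher genes 56 and of the 127 lower genes 89.

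Genes with the most sites were mostly long. Rabgap1l, which encodes a Rab GTPase-activating protein, had 10 sites of the set among 52 and RNA of 92.6 and 99.8 CPM in activated WT and KO (adjusted p = 0.509). Wwox, Fhit, Pard3b and Sugct had 7 each. Their mean RNA level in activated cells was at most 9.90 CPM, and of the 3 that were tested 0 passed. Ncoa1, a coactivator gene of nuclear receptors, had 6 sites and rose from 27.7, 30.9 and 29.3 to 41.7, 38.8 and 36.9 CPM (0.40 ± 0.09, adjusted p = 0.00644). Camk2d, a calcium-dependent kinase gene, had 5 and rose by 0.30 ± 0.08 (adjusted p = 0.0122), a call lost without WT replicate 3 (adjusted p = 0.0668). In all, 43 genes had at least 4 sites.

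Gene lists are set beside the share over all genes: 8.34% of all RNA symbols found in RefSeq, and 11.1% of all tested genes, had a site of the set within 10 kb. In activated RNA 5.89% of all tested genes were higher in KO and 9.04% lower. No gene of the Th1 list (20 genes), the Treg list (14) or the list of NF-kappaB subunits and inhibitors (14) had a site within 10 kb. The list of 24 cAMP-CREB targets and CREB family genes had 17 falls and 1 rise in activated cells, with a median log2 fold change of -1.28 against 0.014 over all genes. Only the phosphodiesterase genes Pde4b and Pde7a of that list had sites of the set, and Pde4b fell by 1.15 beside 10 sites less open in KO. Among 26 T cell receptor signalling genes, 3 were higher and 5 lower, and Lat, Lcp2 and Ptpn22 had 1 site each. Ptpn22, which encodes a phosphatase that restrains receptor signals, fell by 0.84 on the log2 scale (115 ± 7.61 to 65.4 ± 0.133 CPM, adjusted p = 1.12e-07).

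Tcf7, the gene of the factor TCF1 of naive and memory cells, had 1 site and read 239, 265 and 273 CPM in activated WT and 336, 381 and 355 CPM in KO (0.44 ± 0.08, adjusted p = 0.000532). Its list of 22 naive and quiescent genes had 3 higher and 9 lower, beside 5.89% and 9.04% of all tested genes. Bach2, a repressor gene of effector fate in that list, had 3 sites beside 20 less open ones, and the site at chr4:32502022-32502422 had 1.58, 1.33 and 1.29 CPM in activated WT and 7.20, 6.45 and 5.12 CPM in KO. Bach2 RNA was at 154 ± 26.3 and 119 ± 5.98 CPM (adjusted p = 0.0528, 0.00324 without WT replicate 1, and up to 0.173 in the other alternatives). The inhibitory receptor genes Pdcd1 and Lag3, with 1 site each, were the only ones of 23 T cell activation genes to have any. Pdcd1 was at 127 ± 14.9 CPM in activated WT and 156 ± 17.0 CPM in KO (adjusted p = 0.163, and 0.0166 with the replicate block), and Lag3 at 110 ± 19.8 and 94.5 ± 10.2 CPM (0.187, and 0.042 with the block).

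Tox, a factor of exhausted and follicular helper cells, rose by 0.37 ± 0.08 (adjusted p = 0.00474) with 2 sites beside 6 less open ones. Other listed genes near a site fell. Cd28, the costimulatory receptor gene, had 1 site and 1 less open one and fell from 235 ± 20.9 to 167 ± 12.8 CPM (-0.52 ± 0.08, adjusted p = 0.000328). Runx2, a RUNX factor gene, had 1 site and 14 less open ones and fell by 1.08 on the log2 scale (adjusted p = 0.0123), a call lost without WT replicate 3 (0.0638) or KO replicate 3 (0.0707). Rora, a nuclear receptor gene, had 1 site and 19 less open ones (-0.86 ± 0.28, adjusted p = 0.0466), a call lost in most alternatives, with adjusted p up to 0.199.

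Of 25 interferon-stimulated genes, all tested, 6 had sites, beside the 11.1% of all tested genes. Of these 2 were higher and 0 lower in activated KO, beside 5.89% and 9.04% of all tested genes. The whole list had 3 higher and 1 lower and a median of -0.36 on the log2 scale, and the 6 a median of 0.32. Gbp4, an interferon-inducible GTPase gene, rose by 0.49 ± 0.09 (adjusted p = 0.00162). Stat3, with 3 sites and 4 less open ones, fell from 485 ± 44.0 to 228 ± 7.01 CPM (-1.11 ± 0.08, adjusted p = 2.19e-08).

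Of 15 B cell markers 5 had 1 or more sites, Ms4a1, Pax5, Ebf1, Cd22 and Bank1, with 7 sites, beside the 8.34% of all symbols. Of the 15 markers 5 were tested, with 3 higher and 0 lower, beside 5.89% and 9.04% of all tested genes. Bank1, a B cell scaffold gene, was the only tested one with a site and rose from 2.14, 4.46 and 3.72 to 6.86, 10.3 and 9.92 CPM (1.37 ± 0.23, adjusted p = 0.000497). The 15 markers summed to 110 to 139 CPM in activated WT and 180 to 211 CPM in activated KO, and to 304 to 323 and 303 to 329 CPM in naive cells. Blk and Iglc2 were at 0 counts in activated WT and KO, Pax5 was at 0 in activated KO, and Ms4a1 was at 1.11 ± 0.343 CPM against 0.0943 ± 0.0949 CPM in WT. Of the 14 myeloid and dendritic markers 2 had sites, and of the 7 NK cell markers 3. The myeloid and dendritic markers summed to 8.83 to 12.5 CPM in activated WT and 7.70 to 8.98 CPM in KO, with Itgax and Lyz2 at 0 in both. The part of B cells in the RNA of Spib, Pld4 and Bank1 or in these sites was not tested. Erythroid and CD8 T cell markers had no site.

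In naive cells RNA differed at few of the tied genes. Of 1330, F830016B08Rik and Ppic were higher and Gpr171 lower, where 0.125% of all genes were higher and 0.117% lower. All 3 lie on chromosomes 3 and 18, and they are named because the count is small. With DESeq2 the count was 7 higher and 1 lower, and without WT replicate 2 or KO replicate 1 it was 0 and 1. Without WT replicate 1 it was 4 and 2.

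With forskolin 264 of 1246 tied genes were higher in KO (21.2%) and 255 lower (20.5%), where 19.7% of all genes were higher and 18.8% lower. The tied shares were therefore near the background. Of the tied genes higher in activated KO, 118 were tested with forskolin, and 43 of them were higher there and 15 lower. Of those lower in activated KO, 118 were tested as well, with 51 lower and 14 higher. Activation of WT cells raised 540 of the 1330 tied genes (40.6%) and lowered 557 (41.9%), where 42.3% and 40.3% of all genes rose and fell.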

How the data were processed

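The authors deposited raw counts per site for 12 ATAC-seq libraries, in a naive and an activated table that share 110808 sites, and raw counts per gene symbol for 18 RNA-seq libraries. The ATAC tables also hold an FDR (an adjusted p-value) per site as the authors computed it. The build is mm10 per the submitters' processing notes. The aligner, peak caller and counter are not given in the sources used here. All but 124 sites are 400 bases apart from start to end.

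Sites and gene lists were chosen with earlier results of these data known. CPM used the column sums. Differences were tested with edgeR's quasi-likelihood test (edgeR 4.0.16 in R 4.3.3, TMM scaling, filterByExpr), fitted on each whole table with Benjamini-Hochberg adjustment over all features and called at FDR 0.05. Every adjusted p in the text is from that test, and ± after a log2 fold change is its SE. DESeq2 1.42.0 and limma-voom (limma 3.58.1) were alternatives. Scripts were tested on simulated counts. RNA rows without a symbol (1314 rows, 0.128% to 0.159% of counts) were left out. A gene was tied to a site when its RefSeq span lay within 10 kb. Starts and promoter windows came from RefSeq tables of GRCm38.p6, which are not complete: on the chromosomes they cover, 17492 of 21376 protein-coding genes had a listed start, so distances can be too long.

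Named genes were the 10 largest rises and 10 largest falls called among tied genes whose groups did not overlap and whose higher group reached 5 CPM, without unnamed models or sex-linked genes. To these came the 10 genes with most sites, up to 4 per list, the 10 sites with the largest difference, and 5 sites on each side of the threshold. Genes with a site over their start were added later. Only some of the genes that the rule takes from the lists are reported here.

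Same-numbered WT and KO libraries deviated together in naive ATAC (correlations 0.352, 0.254 and 0.182) and activated RNA (0.557, 0.280 and 0.236). Unlike-numbered libraries reached at most 0.0457 in naive ATAC. In activated RNA they reached 0.254 (WT replicate 3 with KO replicate 2) and 0.194 (WT replicate 2 with KO replicate 3), so pairing of these replicates is not shown there. The numbers were used as pairs only in the alternative with the replicate block, and not in the main test. Same-numbered correlations were 0.409, 0.0036 and 0.040 in naive RNA and 0.161, 0.0777 and 0.217 with forskolin, and pairs were not taken as shown there.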

Additional observations from a re-analysis of the deposited data

Results flagged for a closer look

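The KO against WT difference in RNA depended on the state for 9 of the 20 named rises and falls, by the interaction term of the edgeR fit over naive and activated libraries. Values are the activated minus the naive log2 fold change, with the SE and the p adjusted over all genes. In this interaction test 1.18% of all genes were higher and 2.52% lower, and 2.26% and 2.41% of the 1330 tied genes. The 20 were chosen for large activated differences in the same fit, so that the count of 9 is a description.

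Among genes near more open sites that rose in activated KO, Kifc3 differed by 2.29 ± 0.45 (adjusted p = 0.00608), Pdk2 by 2.14 ± 0.22 (1.03e-05), Slamf6 by 1.72 ± 0.30 (0.00957) and Ramp1 by 1.68 ± 0.25 (0.000615). None of these 4 was called in naive cells, where Pdk2 stood at 12.6 ± 0.487 CPM in WT and 11.5 ± 1.90 CPM in KO. Ramp1 stood at 49.2 ± 7.04 CPM in naive WT and 45.3 ± 2.89 CPM in naive KO before it fell on activation.

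Among those that fell, Asph, which encodes an aspartyl hydroxylase, differed by -2.38 ± 0.51 (adjusted p = 0.0118) and Galc, a lysosomal galactosidase gene, by -2.02 ± 0.34 (0.00168). Adcy6 differed by -1.69 ± 0.15 (2.55e-06), Gpr171 by -1.50 ± 0.15 (8.63e-06) and Rbpj by -1.30 ± 0.11 (1.41e-06). Gpr171 was the only one of the 9 also called in naive cells.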

How the results depend on the processing

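The number of sites was 2019 with a pseudocount of 1 and 966 with a threshold of 1, and 2882 to 3986 with 1 library left out. The replicate block, which took the numbers as pairs, raised the naive ATAC count from 76 to 163 and the activated RNA count of tied genes from 280 to 309. It changed 2 of the 59 calls of named genes, both gained. The naive ATAC count was 44 at FDR 0.01, 7 by the authors' FDR, and 32 (without KO replicate 3) to 84 (without KO replicate 2) with a library left out. The alternative without the sites at Cd4 and Lag3 (72) was chosen after seeing the data. The activated RNA count was 159 at FDR 0.01, 474 within 50 kb, 83 with a minimum absolute log2 fold change of 1 (61 higher, 22 lower), and 180 to 227 with an activated library left out. The naive RNA count of 3 was 8 with DESeq2, 7 with the block, 1 at FDR 0.01, 0 without chromosomes 3 and 18, 0 inside gene spans only, 10 within 50 kb, and 1 to 6 with a library left out. Within 50 kb the forskolin count was 1008 in place of 519 and the WT activation count 2190 in place of 1097, since more genes are tied. No call of a named gene changed sign, but signs of 7 uncalled named genes did in at least 1 alternative. The larger side also changed for forskolin inside gene spans (196 higher, 208 lower, against 264 and 255) and for WT activation within 50 kb (1132 and 1058, against 540 and 557), with DESeq2 and with RLE scaling, and for the naive RNA count of 3 with some libraries left out. Where the counts differ otherwise, the cause was not tested. With 2 to 4 counts per site in the median naive library, most sites could not be tested in naive cells.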
